A study of Mus musculus with 21 samples.

Results

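Hand1 and Hand2 are the 2 HAND genes of the mouse, and the 2 rows with these symbols were taken from count tables of 48321 gene symbols each. The study measured RNA in embryoid bodies (balls of mouse embryonic stem cells that differentiate in suspension) to ask how the dimer partner of TWIST1 changes the transcriptome. All 21 samples came from A2loxCre stem cells, whose strain the labels give as C57BL/6, and were taken on day 3 of differentiation. In these cells a coding sequence is integrated behind a promoter that doxycycline switches on. There were 7 groups of 3 samples. The parental line carried no TWIST1 construct and received doxycycline, and the TWIST1 monomer line was sampled once without doxycycline (uninduced) and once with it. The other 4 groups received doxycycline and carried TWIST1 joined to a second TWIST1 (homodimer), to TCF3, to TCF4 or to TCF12 (heterodimers). Induction lasted 16 h. The labels do not say how many clones stand behind each line, nor whether the 3 samples of a group were separate cultures. The p-values therefore measure the spread between these samples, which may be technical.

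HAND1 and HAND2 are basic helix-loop-helix (bHLH) transcription factors of the same subfamily as TWIST1. Like TWIST1 they bind DNA at E-box sequences as dimers, often with the widely expressed E-proteins TCF3, TCF4 and TCF12, and Id proteins compete for those E-proteins. Hand1 is known for roles in extraembryonic mesoderm, trophoblast giant cells and the heart. Hand2 is known for roles in the heart, the limb bud, the lower jaw and sympathetic neurons. BMP signalling acts upstream of both genes in several of these tissues.

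In the GENCODE M21 annotation of mouse genome GRCm38, Hand1 (ENSMUSG00000037335.13) lies on the minus strand at chr11:57828705-57832818. It has 3 annotated transcripts, which together cover 1997 exonic bases and 648 coding bases. Hand2 (ENSMUSG00000038193.4) lies on the plus strand at chr8:57320983-57324633, with 1 transcript of 2351 exonic bases and 651 coding bases. The antisense gene Hand2os1 overlaps 461 of the exonic bases of Hand2, or 19.6%. Without a stated strand setting, reads from the overlap cannot be told apart, but the tables list the antisense gene, under its synonym Gm28063, with 0 counts in all 21 samples.

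The 250 bases before the annotated start of Hand2 are shown because TWIST1 dimers bind E-boxes, which read CANNTG on either strand. The sequence is that of RefSeq on GRCm38.p6, plus strand, chr8:57320733-57320982, and the capitals mark the E-boxes.
Hand2 upstream: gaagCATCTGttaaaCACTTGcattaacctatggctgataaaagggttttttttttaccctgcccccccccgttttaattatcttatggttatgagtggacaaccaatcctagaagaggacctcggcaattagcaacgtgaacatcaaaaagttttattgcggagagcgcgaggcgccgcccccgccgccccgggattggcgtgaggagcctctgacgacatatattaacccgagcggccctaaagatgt
The window held 2 E-boxes, CATCTG beginning 246 bases and CACTTG beginning 235 bases before the start. At least 1 CANNTG stood in 66.2% of the 32851 upstream windows of the same length, with a median of 1 per window. CATCTG, read on both strands, stood in 14.4% of the windows. CATATG, another form of CANNTG, stood in 3.46% of the windows and not in that of Hand2.

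Total counts per sample ranged from 6648842 to 15999693, so 3 counts, used here as the floor of detection, corresponded to 0.182 to 0.488 CPM (each count divided by its TMM-adjusted library size). The Twist1 symbol, which cannot separate the construct from the native gene, averaged 8.11 ± 0.79 CPM (SD, n = 3) in parental samples and 5.07 ± 0.63 in uninduced monomer samples. It stood at 613 ± 32 with the monomer induced, 182 ± 17 in the homodimer line, and 55.2 ± 2.4, 39.4 ± 2.9 and 42.3 ± 5.3 in the TCF3, TCF4 and TCF12 dimer libraries. Tcf4 was raised in the TCF4 dimer line, at 330 ± 23 CPM against 47.5 ± 7.3 in the parental line. Tcf3 was not raised in the libraries labelled TCF3 dimer (154 ± 5 against 167 ± 6), and Tcf12 in the libraries labelled TCF12 dimer ranged from 53.2 to 118 CPM against 104 ± 15 in those labelled TCF3 dimer. These 2 labels are therefore used as labels throughout. The counts of TCF12 dimer sample 1 differed from those of samples 2 and 3 with a chi-square per degree of freedom over genes of 94.5 and 116, and those of uninduced monomer sample 1 with 39.2 and 43.9. All other pairs within a group lay between 1.46 and 4.08. Most log2 differences of Hand1 and Hand2 under the TCF12 label are given with and without TCF12 dimer sample 1. Ratios of summed CPM and most list counts are given only with it. The 3 tables of the TCF12 label also differ from the other 18 in how gene names were handled, which cannot be told apart from the group.

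Hand1 was near the limit of detection in 4 groups and clearly present in the 3 heterodimer groups. Parental samples 1, 2 and 3 held 4, 4 and 2 counts. The monomer line held 3, 4 and 4 counts uninduced and 3, 2 and 2 induced, and the homodimer line held 2, 2 and 0. The heterodimer libraries held 87, 29 and 45 counts under the TCF3 label, 45, 26 and 36 under TCF4, and 160, 122 and 63 under TCF12. Each of these 9 libraries held more than 6 times the highest count of 4 seen in any of the other 12.

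In CPM, parental Hand1 averaged 0.357 ± 0.135 (SD, n = 3). The monomer line averaged 0.432 ± 0.050 uninduced and 0.260 ± 0.070 induced, and the homodimer line 0.132 ± 0.116. The single values in these 12 samples lay between 0 and 0.488 CPM, and the groups overlapped in most cases. The libraries labelled TCF3 dimer held 7.19, 2.56 and 3.66 CPM, a mean of 4.47 ± 2.42. The TCF4 dimer libraries held 3.54, 2.22 and 2.19 CPM, a mean of 2.65 ± 0.77. The libraries labelled TCF12 dimer held 16.8, 10.0 and 5.08 CPM, a mean of 10.6 ± 5.9. The TCF3 values thus overlapped those of both other heterodimers, whereas every TCF12 value lay above every TCF4 value.

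Hand2 showed the same division of the groups, and in the heterodimer libraries its counts were lower than those of Hand1. Parental samples 1, 2 and 3 held 0, 1 and 1 counts. All 3 uninduced monomer samples held 0, the induced ones 1, 0 and 0, and the homodimer line 1, 3 and 2. In the heterodimer libraries the counts were 27, 14 and 16 under the TCF3 label, 18, 12 and 14 under TCF4, and 40, 18 and 22 under TCF12. The lowest heterodimer count, 12, stood against a highest count of 3 in the other 12 samples.

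In CPM, Hand2 averaged 0.0698 ± 0.0605 (SD, n = 3) in parental, 0.0379 ± 0.0657 in induced monomer and 0.194 ± 0.081 in homodimer samples. For the uninduced monomer samples, with 0 counts, the floor of 3 counts stood at 0.488, 0.314 and 0.293 CPM in samples 1, 2 and 3, and the upper ends of the two-sided 95% Poisson intervals at 0.600, 0.386 and 0.360. The libraries labelled TCF3 dimer held 2.23, 1.24 and 1.30 CPM, a mean of 1.59 ± 0.56. The TCF4 dimer libraries held 1.42, 1.03 and 0.852 CPM, a mean of 1.10 ± 0.29. The libraries labelled TCF12 dimer held 4.20, 1.48 and 1.78 CPM, a mean of 2.48 ± 1.49. Samples 2 and 3 of the TCF12 label lay within the range of the TCF3 label, and sample 1 lay above all others.

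**Figure D1:**
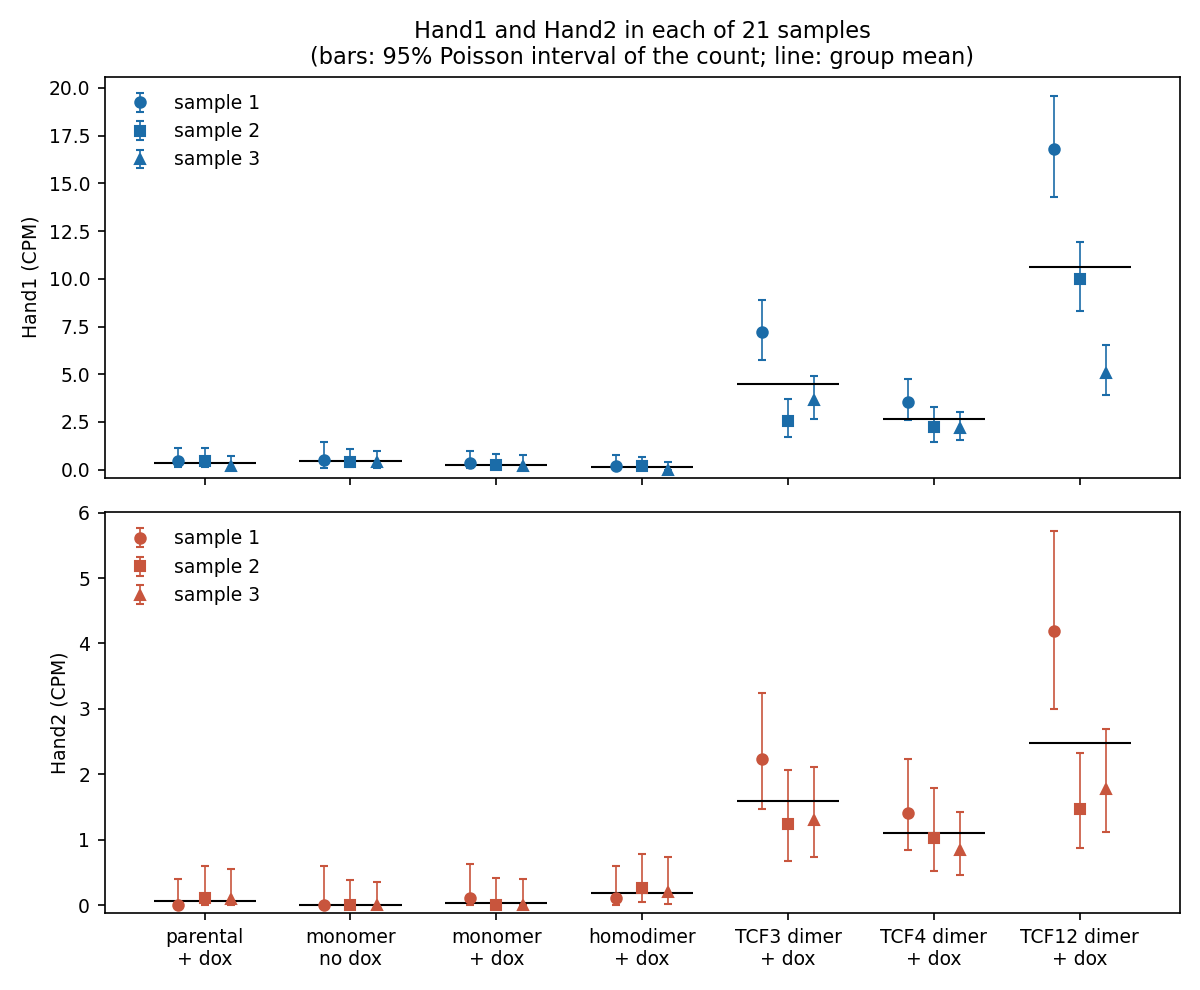
Hand1 (upper panel) and Hand2 (lower panel) in CPM (y axis, linear) in each of the 3 samples of the 7 groups (x axis); bars are 95% Poisson intervals of the count and horizontal lines are group means. The 9 heterodimer samples lie between 2.19 and 16.8 CPM for Hand1 and between 0.852 and 4.20 CPM for Hand2, above all 12 other samples.

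Sample 1 was the highest of its group for both genes under each of the 3 heterodimer labels. For Hand1 the spread between samples exceeded counting error under 2 labels. The chi-square of the 3 counts against a common level was 30.8 on 2 degrees of freedom for TCF3 and 73.0 for TCF12, and 5.96 for TCF4. As an example, the 95% Poisson interval of Hand1 in TCF3 dimer sample 1 ran from 5.76 to 8.87 CPM and that of sample 2 from 1.71 to 3.68. For Hand2 the same statistic was 4.66 for TCF3, 2.16 for TCF4 and 19.6 for TCF12, the last carried by sample 1, which stands apart across all genes. Counting intervals and floors cover counting error only, since without molecular identifiers the copies made of 1 molecule in amplification cannot be recognised.

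Divided by exonic length, Hand1 stood above Hand2 in each heterodimer group. Per kilobase of exon, the Hand1 level was 2.24 ± 1.21 CPM (SD, n = 3) against a Hand2 level of 0.676 ± 0.237 under the TCF3 label. The levels were 1.33 ± 0.39 and 0.467 ± 0.123 under TCF4, and 5.32 ± 2.94 and 1.06 ± 0.63 under TCF12. In the homodimer line the order was the other way round, 0.0660 ± 0.0579 for Hand1 and 0.0827 ± 0.0346 for Hand2, from 4 and 6 counts in all.

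Ordered by mean level, Hand1 ran from TCF12 through TCF3 to TCF4, and then through uninduced monomer, parental and induced monomer to the homodimer. No pair among these lowest 4 groups passed the test. Hand2 followed the same order among the heterodimers, then homodimer, parental, induced monomer and uninduced monomer. The order of Twist1 levels was different, with the induced monomer line highest in Twist1 and among the lowest for both Hand genes. No TWIST1 protein level was measured in these data.

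Each group was compared with the parental line to ask in which lines the 2 genes differ. No dimer line was sampled without doxycycline. Effects of a dimer construct therefore cannot be told apart from other differences between the lines. Hand1 and Hand2 both rose in all 3 heterodimer groups and in none of the others. Differences are log2 fold changes with their standard errors from edgeR's quasi-likelihood test over 14311 genes, and a gene passed at a Benjamini-Hochberg adjusted p under 0.05. Both genes entered the test through their counts in the heterodimer libraries. In bulk RNA, more cells with a transcript and more transcript per cell cannot be told apart.

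Hand1 was higher by 3.62 ± 0.61 (log2) under the TCF3 label (adjusted p = 0.000165), where 16.3% of all tested genes passed as higher. The ratio of summed CPM was 12.8, with a 95% counting interval of 6.76 to 27.1. In the TCF4 dimer line Hand1 was higher by 2.86 ± 0.66 (adjusted p = 0.00577), against 7.18% of genes that passed as higher (14.5% without TCF12 dimer sample 1, which enters the shared spread). That ratio was 7.42 (3.88 to 15.9). In the libraries labelled TCF12 dimer Hand1 was higher by 4.84 ± 0.55 (adjusted p = 2.75e-06), against 15.5% of genes, a ratio of 28.6 (15.4 to 60.2). This difference was 4.37 (adjusted p = 5.16e-09) without TCF12 dimer sample 1.

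Hand2 was higher by 4.28 ± 0.76 (log2, adjusted p = 0.000392) under the TCF3 label, by 3.73 ± 0.82 (0.00467) under TCF4 and by 4.87 ± 0.71 (7.81e-05) under TCF12. The last value was 4.31 (4.35e-06) without TCF12 dimer sample 1. Since the parental line held only 2 Hand2 counts, these log2 values depend on the small count that edgeR adds. The ratios of summed CPM were 22.6 (5.97 to 191), 15.2 (3.98 to 130) and 33.2 (8.90 to 279), with intervals wide enough that the size of the rise is poorly fixed. By log2 fold change against the parental line, Hand1 ranked 67, 53 and 24 and Hand2 37, 26 and 21 among the 14311 genes for TCF3, TCF4 and TCF12.

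No change of either gene passed the test in the other groups against the parental line. Hand1 differed by 0.26 ± 1.01 (log2, adjusted p = 0.904) in the monomer line uninduced, by -0.43 ± 1.11 (0.859) in the same line induced and by -1.34 ± 1.25 (0.679) with the homodimer. The shares of all genes that passed in either direction were 19.9%, 20% and 8.84%, or 36.8%, 35.2% and 20.4% without TCF12 dimer sample 1. The counting interval of the homodimer ratio ran from 0.0860 to 1.30, so these libraries leave room for a fall of Hand1 but not for a rise near that of the heterodimers. For Hand2 the adjusted p-values were 0.409, 0.833 and 0.660, and the homodimer ratio of 2.82 had an interval from 0.504 to 28.6.

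The uninduced monomer line served as a second reference, one that carries a construct and received no doxycycline. Against it Hand1 was higher by 3.37 ± 0.61 (log2, adjusted p = 0.000316) under the TCF3 label, 2.60 ± 0.65 (0.00435) under TCF4 and 4.59 ± 0.55 (2.17e-06) under TCF12, where 15.7%, 16.8% and 20% of all genes passed as higher (22.9%, 25.9% and 24.5% without TCF12 dimer sample 1). The ratios were 10.6, 6.18 and 23.9. Leaving out TCF12 dimer sample 1, the last difference was 4.12 (5.67e-09), and without both that library and uninduced monomer sample 1 it was 4.18 (3.27e-08). Hand2 had 0 counts in this reference. Set against a floor of 3 counts over the group, it was 13.8-fold higher under TCF3, 9.32-fold under TCF4 and 20.3-fold under TCF12 (adjusted p = 0.000157, 0.000576 and 1.81e-05). These folds leave out the counting error of the heterodimer counts. In the homodimer line Hand2 was at least 1.72-fold higher, and its 3 samples did not overlap the 3 at 0, but the adjusted p was 0.123, in a comparison where 22.8% of genes passed. This pair passed in the fit without TCF12 dimer sample 1 (adjusted p = 0.0279, with 37.8% of genes passing), and not when uninduced monomer sample 1 was left out as well (0.0561). Induction of the monomer within its own line changed neither gene beyond the test, with a Hand1 difference of -0.69 ± 1.09 (adjusted p = 0.9998), in a comparison where 2.00% of genes passed, or 6.17% without TCF12 dimer sample 1.

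The dimer lines were next compared with the induced monomer line, where the joined partner cannot be told apart from the line. Hand1 was higher by 4.05 ± 0.66 (log2, adjusted p = 0.000185) under the TCF3 label, 3.29 ± 0.71 (0.00173) under TCF4 and 5.27 ± 0.59 (1.40e-06) under TCF12, with 12.7%, 14.5% and 18.1% of genes passing as higher. The ratios of summed CPM were 17.4, 10.1 and 39.0. Hand2 passed in the same 3 comparisons (adjusted p = 0.000431, 0.00150 and 3.78e-05). With 1 Hand2 count in the monomer line, its ratios of 43.1, 29.1 and 63.3 have counting intervals whose lower ends are 7.42, 4.95 and 11.04, and their upper ends are not fixed usefully by a single count. With TCF12 dimer sample 1 left out the TCF12 differences were 4.81 for Hand1 and 5.07 for Hand2, and both passed, while the shares of genes passing as higher became 20.3%, 24.0% and 22.3%. The homodimer did not differ from the monomer beyond the test for Hand1 (-0.91 ± 1.35, adjusted p = 0.746) or Hand2 (2.11 ± 1.37, 0.353), in a comparison where 18.5% of genes passed (33.3% without that library).

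Against the homodimer, the comparison of an E-protein partner with a second TWIST1, both genes were again higher under all 3 labels. Hand1 was higher by 4.96 ± 0.73 (log2, adjusted p = 4.93e-05) under the TCF3 label, 4.19 ± 0.79 (0.00227) under TCF4 and 6.18 ± 0.65 (2.35e-06) under TCF12. The shares of genes passing as higher were 13.6%, 3.13% and 8.60%. The ratios were 33.9 (13.0 to 126), 19.7 (7.48 to 73.7) and 76.2 (29.5 to 281), on 4 homodimer counts. Hand2 was higher by 2.93 ± 0.61 (0.00196), 2.38 ± 0.65 (0.0373) and 3.51 ± 0.57 (0.000429), with ratios of 8.01 (3.46 to 22.7), 5.41 (2.30 to 15.5) and 11.8 (5.18 to 33.0). The Hand2 call for TCF4 was the weakest, since it was lost on leaving out any of the 6 samples compared, with adjusted p between 0.0526 and 0.145. For the mean of the 3 heterodimers the differences were 5.11 ± 0.66 for Hand1 (2.05e-05) and 2.94 ± 0.54 for Hand2 (0.00110), with 7.99% of genes passing as higher. Without TCF12 dimer sample 1 the TCF12 differences were 5.70 for Hand1 and 2.95 for Hand2, both passing. The Hand2 difference for TCF4 passed in that fit too, at 2.37 (adjusted p = 0.00131). The shares of genes passing as higher were then 20.9%, 8.70% and 11.3%, and 14.7% for the mean of the 3. Whether the 2 genes differ from each other in this contrast was not tested.

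**Figure D2:**
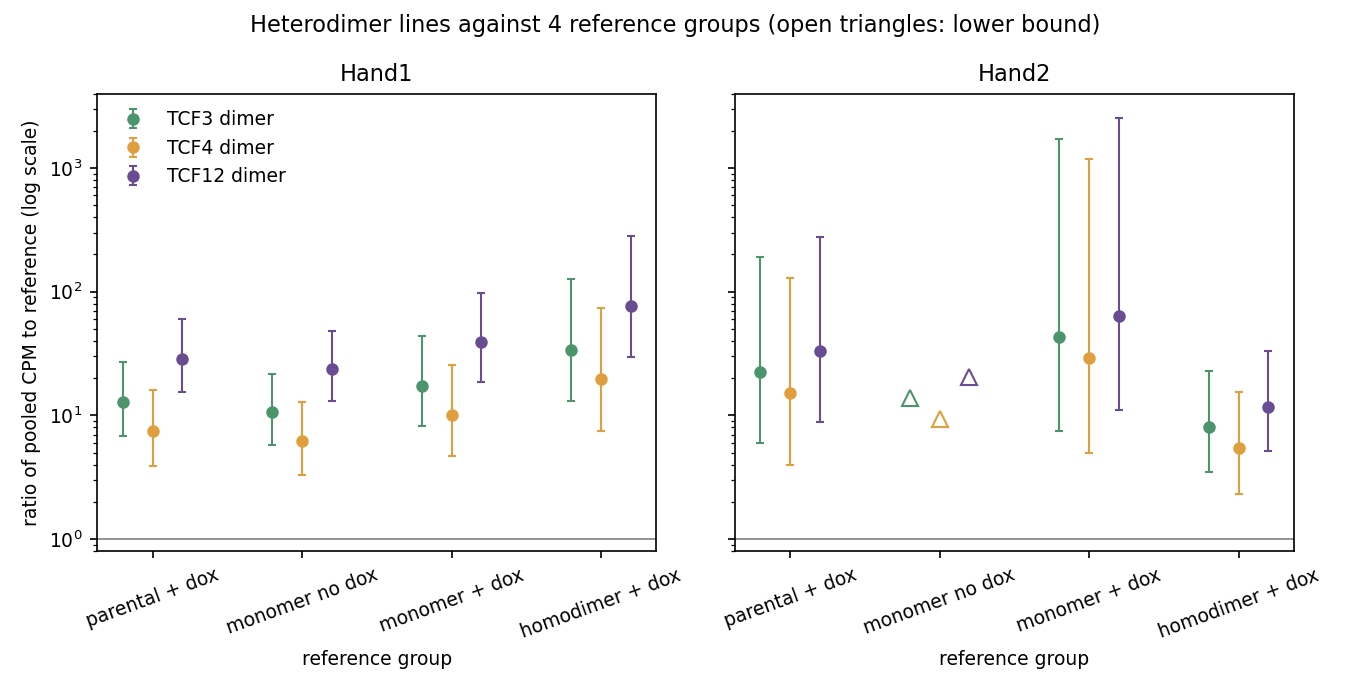
Ratio of summed CPM (y axis, log scale) of each heterodimer group to each of 4 reference groups (x axis), for Hand1 (left) and Hand2 (right). Bars are 95% counting intervals. Open triangles, titled as lower bounds, set the summed level against a floor of 3 counts where the reference held 0 counts. They leave out the counting error of the heterodimer counts. The ratios run from 6.18 to 76.2 for Hand1 and from 5.41 to 63.3 for Hand2, and the lowest ends of their intervals, 3.32 and 2.30, lie above 1.

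The heterodimer lines were then compared with each other, where the E-protein partner cannot be told apart from the line. Hand1 was higher under the TCF12 label than in the TCF4 dimer line by 1.99 ± 0.37 (log2, adjusted p = 0.00854), a ratio of 3.86 (3.10 to 4.84), and the 3 samples of each group did not overlap. In this comparison 2.07% of all genes passed as higher. The Hand1 difference was 1.51 (0.00138) without TCF12 dimer sample 1. It did not pass without TCF4 dimer sample 2 (1.89, adjusted p = 0.0522) or sample 3 (1.85, 0.0718), nor when only the 2 groups were fitted (2.00, 0.595).

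Hand1 was higher under the TCF12 label than under TCF3 by 1.22 ± 0.35 (adjusted p = 0.0219), a ratio of 2.24 (1.86 to 2.72), with 9.06% of genes passing as higher and with overlapping samples. The difference fell to 0.75 (0.0417) without TCF12 dimer sample 1, and rose to 1.71 (0.00507) without TCF3 dimer sample 1. It did not pass without TCF3 dimer sample 2 (0.96, 0.0950) or sample 3 (1.06, 0.0999), nor in a fit of the 2 groups alone (1.25, 0.360). Between TCF3 and TCF4 the Hand1 difference of 0.77 ± 0.39 did not pass (0.197), where 11.8% of genes passed as higher. Here it was 0.27 (0.768) without TCF3 dimer sample 1. In the fit without TCF12 dimer sample 1, whose spread over genes was smaller, it passed at 0.76 (0.0332), as did 20.7% of genes as higher.

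Hand2 passed in none of the 3 pairs. It differed by 1.14 ± 0.38 (log2, adjusted p = 0.0934) between TCF12 and TCF4, by 0.59 ± 0.37 (0.263) between TCF12 and TCF3 and by 0.55 ± 0.40 (0.395) between TCF3 and TCF4. The corresponding ratios were 2.18 (1.49 to 3.22), 1.47 (1.03 to 2.10) and 1.48 (0.982 to 2.25), so differences of these sizes are not excluded. Without TCF12 dimer sample 1 the first 2 values were 0.58 (0.372) and 0.04 (0.953). The TCF12 to TCF4 difference passed without TCF12 dimer sample 2 (1.40, 0.0341) or sample 3 (1.32, 0.0225).

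The ratio of Hand1 to Hand2 counts within a sample does not depend on library scaling. It was 3.22, 2.07 and 2.81 in samples 1, 2 and 3 under the TCF3 label, 2.50, 2.17 and 2.57 under TCF4, and 4, 6.78 and 2.86 under TCF12. All 3 TCF12 ratios were above all TCF4 ratios, and 1 of them lay within the TCF3 range. Over the summed counts the ratios were 2.82 (exact 95% interval 2.08 to 3.89), 2.43 (1.70 to 3.54) and 4.31 (3.37 to 5.57). An exact permutation test over the 1680 assignments of the 9 samples gave p = 0.0643, where the smallest possible p is 0.00357. The pairs gave two-sided exact permutation p = 0.1 for TCF12 against TCF4, the smallest that 3 against 3 allows, 0.2 for TCF12 against TCF3 and 0.5 for TCF3 against TCF4, or 0.3, 0.3 and 0.5 adjusted over the 3 pairs. Leaving out TCF12 dimer sample 3 gave an exact p of 0.0179 for the 3 groups, and leaving out sample 1 gave 0.0893.

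**Figure D3:**
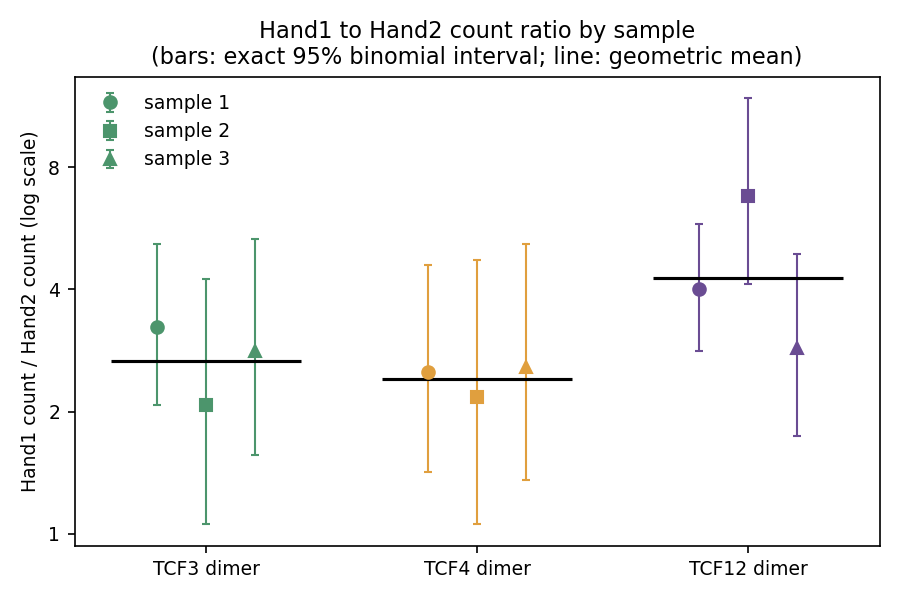
Ratio of the Hand1 count to the Hand2 count (y axis, log scale) in each sample of the 3 heterodimer groups (x axis); bars are exact 95% binomial intervals and lines are geometric means. The ratio lies between 2.07 and 3.22 in the 6 TCF3 and TCF4 samples and reaches 6.78 in TCF12 dimer sample 2.

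The genes whose levels across the 21 samples were most like those of each member were ranked by Pearson's r of log2(CPM + 0.5) among 11234 genes with a highest group mean of at least 5 CPM. For Hand1 these were Snai1 (r = 0.973), Stom (0.965), Csrp1 (0.957), Il11ra1 (0.954) and Serpinf1 (0.949). The value of Il11ra1 is uncertain, since reads can be shared with its near-identical copy. Snai1, a zinc-finger transcription factor, stood at 5.58 ± 0.80 CPM (SD, n = 3) in the parental line and at 45.4 ± 13.6, 26.9 ± 3.0 and 58.5 ± 20.8 under TCF3, TCF4 and TCF12. For Hand2 they were Prrx2 (0.971), Sh3glb1 (0.964), Aida (0.961), Maged1 (0.961) and Mfap4 (0.960). Prrx2, a homeobox factor, stood at 2.55 ± 0.30 CPM in parental samples, 5.68 ± 0.63 with the homodimer and 18.5 ± 5.2, 10.1 ± 1.0 and 28.4 ± 19.2 under TCF3, TCF4 and TCF12. The lists of 5 shared no gene. Hand1 and Hand2 correlated with each other at r = 0.948, and Hand1 ranked 20 in the Hand2 list. These correlations share libraries and lines, and 12 of the 21 points lie near the detection limit of both genes. When TCF12 dimer sample 1 was left out, Snai1 and Stom kept ranks 1 and 2 for Hand1, Il11ra1 moved from rank 4 to 3 and Csrp1 from 3 to 9. For Hand2, Prrx2 moved from rank 1 to 15.

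**Figure D4:**
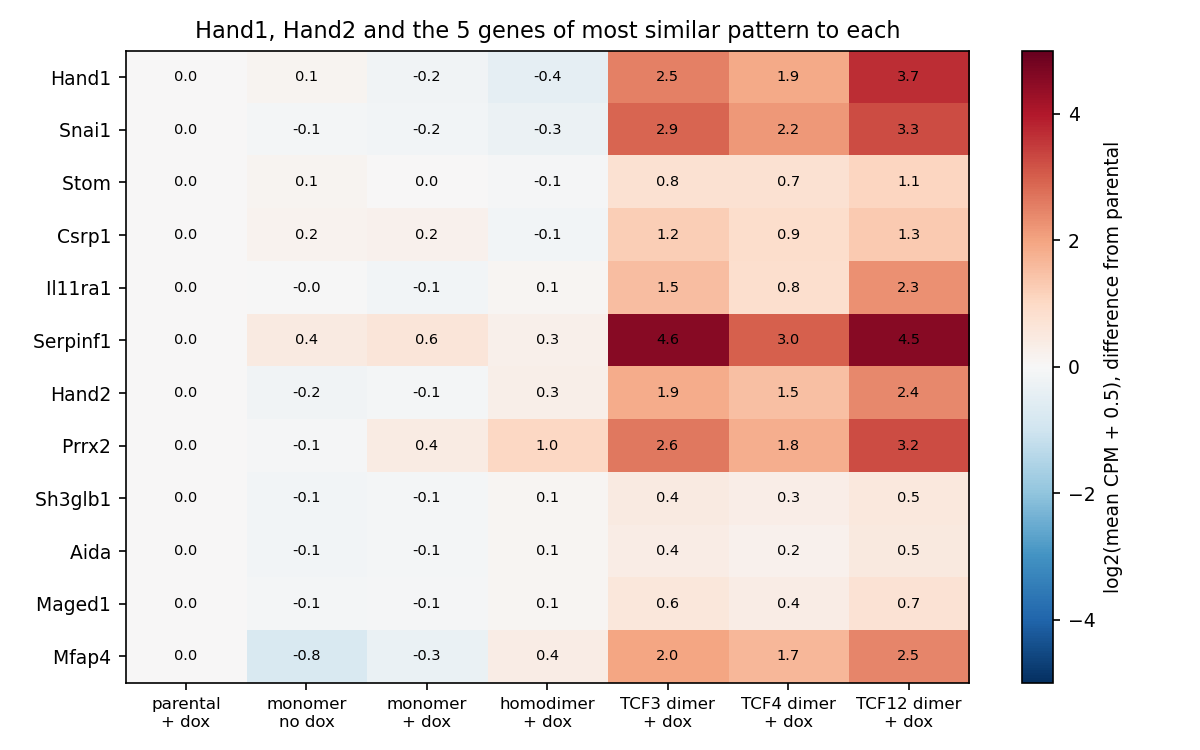
Difference of log2(mean CPM + 0.5) from the parental line (color and printed value) for Hand1, Hand2 and the 5 genes most like each (rows) in the 7 groups (columns). Rows such as Snai1 and Prrx2 are high in the 3 heterodimer columns, and the genes differ widely in the size of that difference.

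The genes next to each member were examined for shared changes. Sap30l, 18.5 kb from Hand1, was higher than in the parental line by 0.94 ± 0.21 (log2, adjusted p = 0.00194) under TCF3 and 0.90 ± 0.21 (0.00375) under TCF12, and by 0.62 ± 0.21 (0.0460) in the induced monomer line, where Hand1 was not raised. In the TCF4 dimer line Sap30l differed by 0.29 ± 0.21 (0.470) while Hand1 rose. On the other side the pseudogene Gm12244 held 2 counts in all and Gm12245 did not pass in any group. 2010001A14Rik, the next gene beyond Sap30l, held 145 counts and was not tested. Beside Hand2, Fbxo8 at 727 kb did not pass in any group, 5033428I22Rik at 7.49 kb held 43 counts over all samples and was not tested, and Scrg1 held 0. Under the TCF3 label the 1116 tested genes of chromosome 11, which carries Hand1, had a median log2 difference of 0.20 against -0.0025 for the genes of other chromosomes, and 30.2% of them passed as higher against 15.2%. Under TCF4 and TCF12 the chromosome 11 medians were -0.0041 and 0.05, with 7.53% and 17.7% passing as higher against 7.15% and 15.3% elsewhere. The 739 tested genes of chromosome 8, which carries Hand2, had medians of -0.07, 0.07 and 0.13 under TCF3, TCF4 and TCF12, against 0.02, -0.0011 and 0.02 for genes elsewhere. Of them 13.8%, 10.8% and 24.6% passed as higher, against 16.5%, 6.98% and 15.0% of genes on other chromosomes. The part of these shifts in the Hand1 and Hand2 results was not tested.

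The bHLH partners and inhibitors that HAND proteins depend on were described from a list of 7 tested genes. Against the parental line 5 passed as higher under TCF3, 5 under TCF4 and 4 under TCF12, and none as lower. Over all tested genes 16.3%, 7.18% and 15.5% passed as higher and 12%, 5.67% and 11.5% as lower. The TCF4 count includes Tcf4, the partner in that construct. The TCF3 count includes Tcf12, higher by 0.66 (log2, adjusted p = 0.0119), which did not pass under the TCF12 label. In groups where neither Hand gene passed, 4 of the 7 (Id1, Id2, Id3 and Id4) passed as higher in the homodimer line and 2 (Id1 and Id2) in the induced monomer line. Of all genes 4.81% and 10.8% passed as higher in the homodimer and induced monomer lines. Id1, an inhibitor that binds E-proteins, was higher by 3.37, 2.94 and 4.25 (log2), and its levels of 599 ± 403 CPM (SD, n = 3) under TCF12 varied widely between samples. Of the subfamily itself, Twist1 and Tcf15 were tested, and Tcf15 was higher by 0.78 (adjusted p = 0.00820) under TCF3. It was higher by 1.70 in the uninduced monomer, 1.45 in the induced monomer and 0.85 in the homodimer samples, where no Hand1 or Hand2 change passed. Twist2 held 1 to 13 counts per group and was not tested.

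Of 4 tested BMP ligands, 3 passed as higher under TCF3, 2 under TCF4 (with 1 lower) and 2 under TCF12. Of all genes 16.3%, 7.18% and 15.5% passed as higher and 12%, 5.67% and 11.5% as lower. In the uninduced and the induced monomer samples, where neither Hand gene passed, 3 of the 4 also passed as higher. Of all genes 10.5% and 10.8% did so there. Bmp7 was higher by 3.48, 2.44 and 3.20 (log2) and Bmp4, the ligand of early mesoderm, by 2.05, 0.85 and 1.38, whereas Bmp2 was lower by 1.52 under TCF4. Bmp4 was also raised in the uninduced monomer line (10.0 ± 0.9 CPM against 4.47 ± 1.07 in the parental line), where Hand2 held 0 counts. Of 10 receptors and Smads, 2 passed as higher under each label, Smad5 (2.52, 1.97 and 2.33) and Smad9 (3.35, 2.16 and 3.32), both of which carry the BMP signal to the nucleus. Smad5 was also higher by 1.05 in both the induced monomer and the homodimer samples. Passing as lower were 2, 0 and 1. Of 6 tested inhibitors 1, 1 and 2 passed as higher, among them Smad6 (2.19, 1.17 and 2.30). Under each label 3 passed as lower, among them Smad7 (-0.75, -0.42 and -0.32) and follistatin, Fst (-3.64, -3.34 and -3.22). Fst was also lower in the groups where neither Hand gene passed, by 3.09 in the uninduced monomer, 4.30 in the induced monomer and 3.69 in the homodimer samples. Smad7 was lower there too, by 0.47, 0.36 and 0.22. Of the 2 BMP target homeobox genes, Msx2 was higher by 0.76 under TCF3 and lower by 0.98 under TCF4, and Msx1 was higher by 0.61 under TCF12. Without TCF12 dimer sample 1 neither passed under TCF12. Msx1 was lower in the uninduced monomer, induced monomer and homodimer samples. Without TCF12 dimer sample 1 the TCF3 counts of receptors and Smads became 4 higher and 3 lower, and those of inhibitors 2 higher and 3 lower, where 24.0% of all genes passed as higher and 22.4% as lower.

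Transcription factors of lateral plate mesoderm and heart, tissues in which Hand1 and Hand2 act, moved in both directions. Of 15 tested of 23, 9 passed as higher and 3 as lower under TCF3, 5 and 5 under TCF4, and 7 and 5 under TCF12. The median log2 differences were 1.17, 0.64 and 0.96, against 0.01, 0.0045 and 0.02 over all genes. Of all genes 16.3%, 7.18% and 15.5% passed as higher and 12%, 5.67% and 11.5% as lower. Gata4 rose by 0.96 under TCF3 but fell by 0.92 under TCF4 and by 0.54 under TCF12. Gata6 differed likewise by 1.17, -1.41 and -1.73, and Tbx3 by 1.04, -1.27 and -0.64, whereas Hand1 and Hand2 rose under all 3 labels. Gata4, Gata6 and Tbx3 were also higher in the monomer line, by 1.93, 1.83 and 1.64 uninduced, where no Hand gene change passed.

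Markers of the differentiated cell types known for Hand1 moved little as sums. Of 8 tested of 17 cardiac contractile genes 1, 1 and 2 passed as higher and 1, 0 and 1 as lower under TCF3, TCF4 and TCF12. The shares passing as higher, 12.5%, 12.5% and 25%, stood against 16.3%, 7.18% and 15.5% of all tested genes, so with 8 genes they are no result about the list. Without TCF12 dimer sample 1 the TCF12 counts became 1 higher and 0 lower, where 15.7% and 14.6% of all genes passed. Their summed level lay between 21.6 and 25.9 CPM in all 21 samples. Tnnc1, the troponin C gene of heart and slow muscle, was higher by 2.48 (log2) under TCF3 and 2.52 under TCF12, and cardiac actin Actc1 by 2.06 under TCF4 and 1.81 under TCF12. Their highest group means were 1.57 ± 1.48 and 1.94 ± 0.27 CPM. Over the 21 samples Myh6 and Actn2 averaged 8.71 and 4.88 CPM, against 0.773 for Tnnc1 and 0.789 for Actc1. A change of genes at such low levels would hardly show in the summed level. Cardiac troponin Tnnt2 held at most 2 counts per group, and Pln held 0 in each heterodimer group. Of 7 tested of 13 trophoblast genes 1, 0 and 0 passed as higher and 1, 2 and 3 as lower. Of all tested genes 12%, 5.67% and 11.5% passed as lower. The trophoblast sums were 36.3 to 40.9 CPM in parental, 41.3 to 43.6 in uninduced monomer, 39.6 to 45.9 in induced monomer and 37.3 to 39.7 in homodimer samples, and 39.4 to 41.2, 37.7 to 38.3 and 33.2 to 34.6 under TCF3, TCF4 and TCF12. The placental hormone genes Prl3d1 and Prl3b1 and the spongiotrophoblast gene Tpbpa held 0 counts in every group.

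Endothelial and blood genes, and extraembryonic endoderm genes, differed between the lines. Of 9 endothelial and blood genes 8 passed as higher under TCF3, 2 under TCF4 and 4 under TCF12, with 0, 1 and 2 lower, against the same shares of all genes as for the lists above. Their sums were 32.4 to 36.0 CPM in parental, 45.8 to 46.5 in uninduced monomer, 117 to 119 in induced monomer and 134 to 142 in homodimer samples, and 172 to 215, 84.9 to 94.0 and 169 to 206 under TCF3, TCF4 and TCF12. The induced monomer and homodimer samples thus had higher sums than the TCF4 dimer samples, while Hand1 and Hand2 stayed near the detection limit in them. Cd34 averaged 76.7 CPM over the 21 samples, against 7.79 for Pecam1, the next highest of the 9. In the induced monomer and homodimer groups Cd34 was the only member higher against both the parental and uninduced monomer lines. Runx1 was lower against both in the homodimer group. None of the 9 genes was at 0 in any group. Of 7 tested of 8 extraembryonic endoderm genes 4, 0 and 0 passed as higher and 2, 5 and 4 as lower. Their sums were 180 to 187 CPM in parental, 697 to 815 in uninduced monomer, 737 to 813 in induced monomer and 117 to 128 in homodimer samples, and 455 to 600.5, 141 to 164 and 124 to 174 under TCF3, TCF4 and TCF12. Lama1, with a mean of 313 CPM over all samples, was the largest part of these sums. The part of these markers in the Hand1 and Hand2 results was not tested. All comparisons of these lists with the parental line share its 3 samples.

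**Figure D5:**
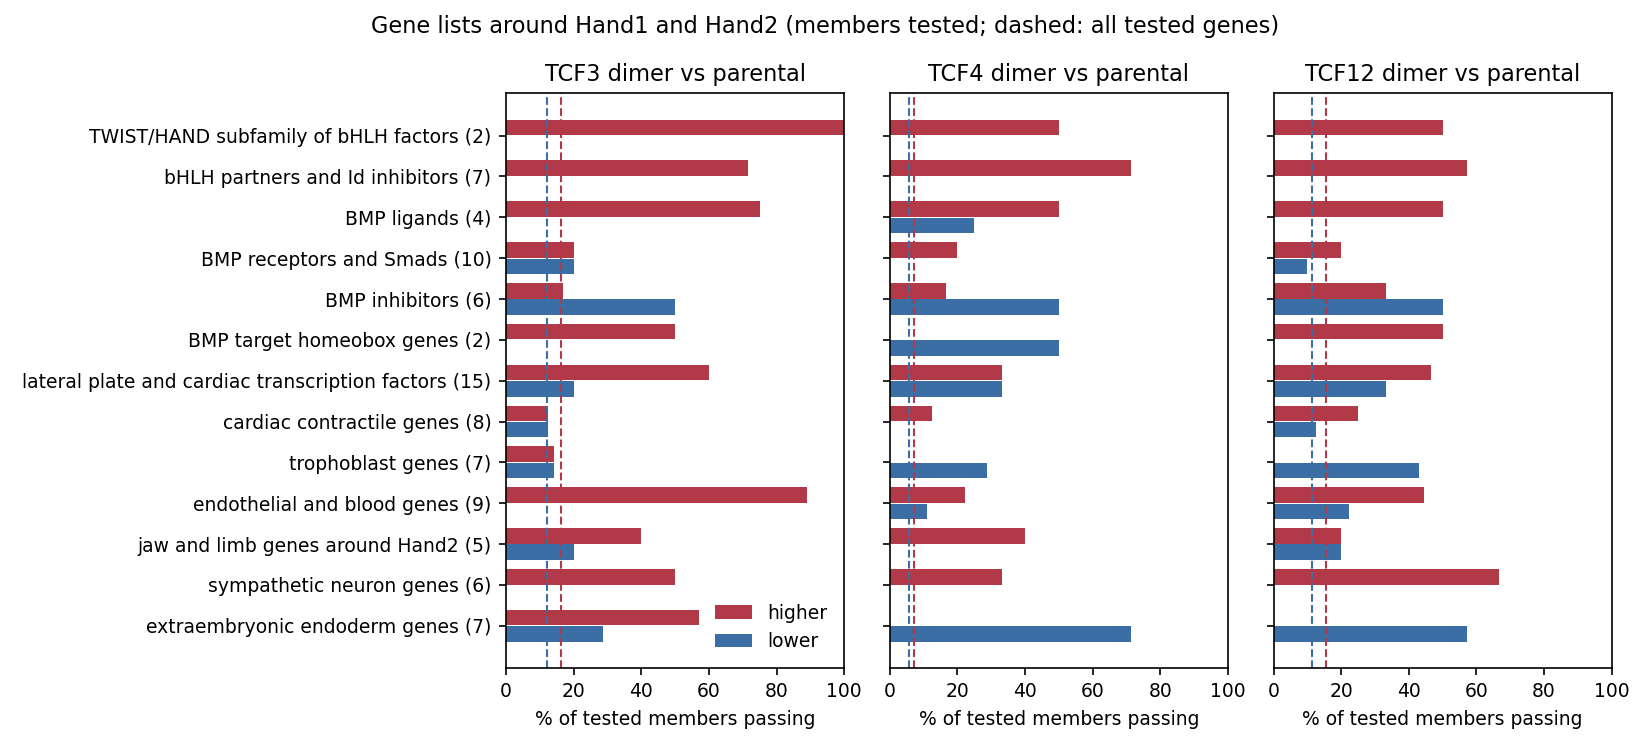
Percent of the tested members of each list (y axis, number tested in brackets) that passed as higher or lower than the parental line (x axis) in the 3 heterodimer groups; dashed lines mark the same percent over all tested genes. Lateral plate and cardiac transcription factors reach 60% higher and 20% lower under TCF3, while cardiac contractile genes reach 12.5% in both directions under TCF3 and 25% higher under TCF12.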

How the data were processed

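RNA-seq libraries of 21 embryoid body samples were prepared with a TruSeq mRNA kit, per the labels' protocols. The authors deposited 1 table per sample with a raw count for each gene symbol. FastQC, TopHat2, HTSeq and the genome names mm10 and GRCm38 are listed, without versions, per the submitters' processing notes, and a strand setting is not given in the sources used here. In the tables of 18 samples, 25 symbols had become calendar dates, so tables were joined by position. Samples were grouped by the labels' genotype and treatment. Counts were tested in 1 fit of all 21 samples with edgeR 4.0.16 (quasi-likelihood, limma 3.58.1, R 4.3.3), TMM factors and filterByExpr (minimum count 10, minimum total 15), which kept 14311 genes, with Benjamini-Hochberg adjustment over all of them and a threshold of 0.05. The fit was tested on simulated data. CPM and all intervals (95%, exact Poisson or binomial) were computed from the counts, and exact permutation tests used SciPy 1.17.1. Genes of gene lists were named where they passed, up to 4 per list and comparison by mean CPM, as were markers with few or no counts. Some genes that the rule names are not reported here. The members and lists were chosen with earlier results of these data known. Alternatives were a replicate block, each sample left out, only the groups compared, a filter of 1 CPM in 3 samples, no filter on low counts, scaling by library size alone or by RLE factors, and DESeq2 1.42.0. A fit without TCF12 dimer sample 1 and uninduced monomer sample 1 was added after seeing the data. Total counts per sample ranged from 6648842 to 15999693, which puts 3 counts at 0.182 to 0.488 CPM.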

Additional observations from a re-analysis of the deposited data

Results flagged for a closer look

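A difference between heterodimer groups in the Hand1 effect was tested directly in 2 cases that passed. The Hand1 log2 difference from the parental line was larger under the TCF12 label than in the TCF4 dimer line by 1.99 (edgeR adjusted p = 0.00854), and larger than under the TCF3 label by 1.22 (adjusted p = 0.0219). The 3 TCF12 dimer samples lay above all 3 TCF4 dimer samples, whereas 1 of them, at 5.08 CPM, lay below the highest TCF3 dimer sample at 7.19 CPM.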

How the results depend on the processing

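The rises of Hand1 and Hand2 in the 3 heterodimer groups against the parental, uninduced monomer and induced monomer groups passed under each alternative that gave a result. Those of Hand1 against the homodimer did so too. With only the groups compared, Hand2 for TCF4 gave no result against any of these references. Results between heterodimers, the Hand2 homodimer call and Hand2 for TCF4 against the homodimer did not hold throughout, and the cause was not tested. Without a low-count filter Hand2 for TCF12 against TCF4 passed (1.13, adjusted p = 0.0373). With only the groups compared, Hand1 for TCF3 against TCF4 passed (0.77, 0.0370), while Hand1 for TCF12 against TCF4 (2.00, 0.595) and against TCF3 (1.25, 0.360) did not. Without TCF12 dimer sample 1, Hand2 for the homodimer against the uninduced monomer (4.17, 0.0279) and Hand1 for TCF3 against TCF4 (0.76, 0.0332) passed, and the latter passed without uninduced monomer sample 1 as well (0.77, 0.0288). Leaving out 1 sample at a time, the log2 difference ranged from 2.12 to 2.69 for Hand2 in TCF4 against the homodimer, from 0.75 to 1.71 and from 1.51 to 2.32 for Hand1 in TCF12 against TCF3 and TCF4, and from 0.58 to 1.40 for Hand2 in TCF12 against TCF4. For Hand1 in the uninduced monomer line against the parental line it ranged from -0.040, without parental sample 3, to 0.42. The exact p of the Hand1 to Hand2 ratio ranged from 0.0179 to 0.221. Counts of 4 per library or fewer limit every statement on Hand1 and Hand2 in the 4 other groups.

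The replicate numbers in the titles are shared by all groups, but same-numbered samples did not deviate together in general (mean correlation 0.0357 over 63 pairs, against -0.0161 over 126 others). In 1 of 21 pairs of groups, the parental line and the TCF12 label, all 3 correlations were over 0.1. With the number as a replicate block, Hand1 and Hand2 in that comparison were 4.81 and 4.86 and still passed. The block added calls for Hand2 in the homodimer line against the uninduced monomer line (4.10, adjusted p = 0.0485), Hand1 for TCF3 against TCF4 (0.71, 0.0456) and Hand2 for TCF12 against TCF4 (1.12, 0.0455), and changed no other call of these 2 genes. Of the list counts against the parental line, 14 of 156 moved by over 1.5 times with DESeq2, 2 with the block and 31 without TCF12 dimer sample 1.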

Other observations

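Other gene groups from tissues that use Hand2 were also measured. Against the parental line 16.3%, 7.18% and 15.5% of all tested genes passed as higher under TCF3, TCF4 and TCF12, and 12%, 5.67% and 11.5% as lower. Of 6 tested of 8 sympathetic neuron genes 3 passed as higher under TCF3, 2 under TCF4 and 4 under TCF12, and none as lower. The noradrenaline enzyme gene Dbh held 0 counts under TCF3 and TCF12. Of 5 tested of 11 jaw and limb genes 2, 2 and 1 passed as higher and 1, 0 and 1 as lower under TCF3, TCF4 and TCF12. Ednra, the endothelin receptor upstream of Hand2 in the jaw, was higher by 2.64, 1.73 and 2.18 (log2). Gli3, known to oppose Hand2 in the limb bud, was lower by 0.85 under TCF3 and by 0.52 under TCF12. The monomer line also had less Gli3, by 0.98 uninduced and 0.91 induced, where Hand2 held 0 and 1 counts.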
